A study of Mus musculus with 17 samples.

Results

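The Ier genes analyzed here are Ier2, Ier3, Ier5 and Ier5l, the immediate early response genes of the mouse. They were found in the matrix of gene counts by the Ensembl identifiers that carry these symbols, and all 4 were present among the 55471 genes of the matrix.

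Immediate early genes are transcribed within minutes of a stimulus from factors that are already in the cell, without new protein synthesis. In the hippocampus they are known for their response to seizures and learning. Ier2, Ier5 and Ier5l encode related nuclear proteins with a similar beginning, and Ier5 is known to bind the B55 subunits of protein phosphatase 2A and the heat shock factor HSF1. Ier3, also called IEX-1, shares the name but not this family, and is known for its link to survival signaling by ERK and to the antiapoptotic protein Mcl-1. CBP, encoded by Crebbp, is a lysine acetyltransferase that CREB and other factors recruit to enhancers and promoters.

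RNA of the hippocampus was sequenced from CBP-ifKO and Control mice in 6 groups, with 3 libraries each except Control PTZ45 with 2, and each library came from 1 male mouse of a C57BL/6 background aged 3 to 6 months. CBP-ifKO mice carried floxed Crebbp alleles and the Camk2a-creERT2 driver, which acts in excitatory neurons of the adult forebrain after tamoxifen, so that other cells of the same tissue kept CBP. Both genotypes received tamoxifen, and the controls were littermates that the methods describe as lacking the driver, although the labels name Camk2a_creERT2 for control samples too. The Sal groups got saline alone. The PTZ0 groups went through a kindling protocol of repeated injections of the GABA-A receptor antagonist pentylenetetrazol (PTZ), with saline as their last injection. The PTZ45 groups went through the same protocol but got 45 mg/kg of PTZ last, and the hippocampus was taken 45 min after that injection. These names stand for injections and not for a seizure stage reached, which differed between the genotypes in the study's kindling experiment. The paper reports that every control mouse came to have seizures at a subconvulsive dose, whereas no CBP-ifKO mouse reached the stage of progressive seizures. The labels give no seizure score for the animals sequenced, so the strength of a seizure and the response of a gene to it cannot be told apart.

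Total counts ranged from 5831992 in CBP-ifKO Sal replicate 2 to 18735643, which leaves the 3 weaker Ier genes with few reads per library. Crebbp lay between 1061 and 1337 normalized counts in CBP-ifKO and between 1824 and 2429 in Control libraries, and Esr1, whose sequence is part of the creERT2 driver, lay between 703 and 941 against 41.0 to 77.8, so that all 17 libraries lay on the side of their label as CBP-ifKO or Control, and Esr1 was low in every library of the controls. Markers of hippocampal excitatory neurons were detected in every library, and the summed choroid plexus markers ranged from 123 to 42212 normalized counts with a wide spread within groups. Sequencing lane followed the groups: Control Sal and Control PTZ0 shared 1 lane, Control PTZ45 and CBP-ifKO Sal another, and CBP-ifKO PTZ0 and CBP-ifKO PTZ45 the other. Outside the comparisons within a lane, lane and group cannot be told apart.

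The 4 genes lie on different chromosomes, and in the GRCm38 assembly no annotated gene overlaps any of them. Ier2 (ENSMUSG00000053560) lies at chr8:84661331-84662852 on the minus strand, Ier5 (ENSMUSG00000056708) at chr1:155096361-155099636 on the minus strand and Ier5l (ENSMUSG00000089762) at chr2:30471537-30474219 on the minus strand, each with 1 exon. Ier3 (ENSMUSG00000003541) lies at chr17:35821684-35822923 on the plus strand with 2 exons. Their coding sequences hold 663 bases in Ier2, 480 in Ier3, 924 in Ier5 and 1218 in Ier5l.

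The first 150 coding bases, all exonic, show which members are related. They are printed 5′ to 3′ on the strand of the gene, from chr8:84662602-84662751 for Ier2, chr1:155099281-155099430 for Ier5, chr2:30473862-30474011 for Ier5l and chr17:35821719-35821868 for Ier3 (GRCm38). Capitals mark the 79 positions that are identical in Ier2, Ier5 and Ier5l.
Ier2: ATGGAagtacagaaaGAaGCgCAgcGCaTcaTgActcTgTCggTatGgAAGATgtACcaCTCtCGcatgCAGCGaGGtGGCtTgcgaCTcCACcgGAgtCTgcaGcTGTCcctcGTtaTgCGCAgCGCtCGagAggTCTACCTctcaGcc
Ier5: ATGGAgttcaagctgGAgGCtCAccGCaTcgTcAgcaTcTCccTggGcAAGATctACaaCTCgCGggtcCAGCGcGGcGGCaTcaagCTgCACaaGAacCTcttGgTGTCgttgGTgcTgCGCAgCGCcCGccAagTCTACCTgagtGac
Ier5l: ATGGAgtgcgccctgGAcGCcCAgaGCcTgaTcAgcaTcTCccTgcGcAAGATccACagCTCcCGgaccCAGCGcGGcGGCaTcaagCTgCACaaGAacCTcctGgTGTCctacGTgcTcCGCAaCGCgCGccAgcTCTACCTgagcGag
Ier3: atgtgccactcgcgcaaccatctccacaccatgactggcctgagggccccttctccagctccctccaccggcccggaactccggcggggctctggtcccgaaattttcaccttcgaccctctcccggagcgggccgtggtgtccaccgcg

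Ier5 and Ier5l were identical at 122 of the 150 positions (81.3%), Ier2 and Ier5 at 93 (62.0%) and Ier2 and Ier5l at 86 (57.3%), whereas Ier3 matched each of the others at 43 to 46. The longest exact run shared by Ier5 and Ier5l held 34 bases, from coding base 69 to 102 in both. A read of 50 bases is longer than that run, and no stretch of 50 bases of the 4 genes occurred in the transcripts of another gene.

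Per kilobase of exon, Ier5 was the most abundant Ier gene in the hippocampus of Control Sal mice, with 80.8 normalized counts per kilobase. Ier3 followed with 22.7, and Ier5l with 12.6 and Ier2 with 11.9 were the lowest. In Control PTZ45 mice Ier2 reached 97.3 normalized counts per kilobase, beside 94.9 for Ier5, 37.1 for Ier3 and 10.7 for Ier5l. The gene with the lowest level at rest was thus level with Ier5 after the last PTZ injection. In CBP-ifKO mice Ier2 was at 11.2 normalized counts per kilobase in Sal, 11.9 in PTZ0 and 24.2 in PTZ45, and Ier5 was at 63.8, 58.6 and 64.5.

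**Figure D1:**
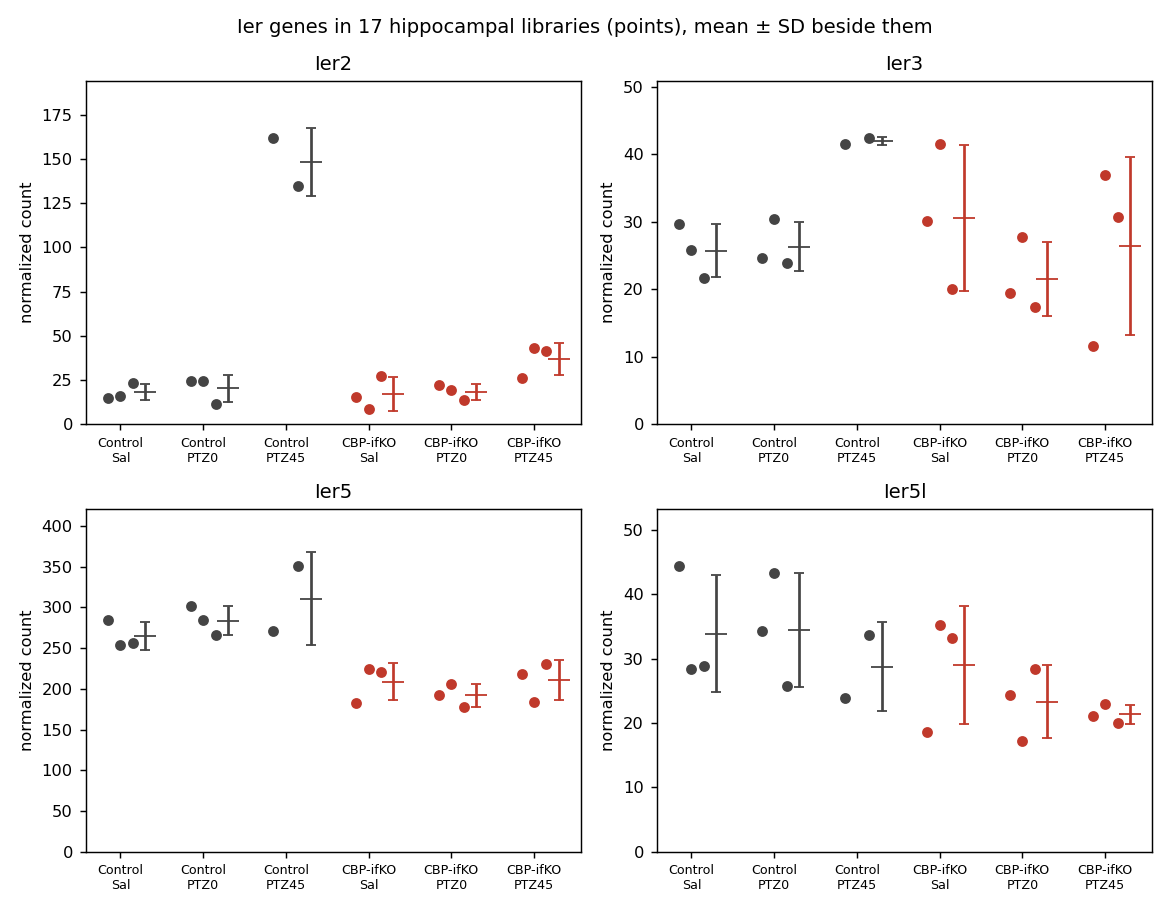
Normalized counts (DESeq2 size factors over 17 libraries, linear axes from 0) of the 4 Ier genes in the 6 groups, with 1 point per library, a bar at the group mean and error bars of 1 SD. Ier2 stands at 162 and 135 in the Control PTZ45 libraries and at 43.0 or less in all others, and every CBP-ifKO library of Ier5 lies below every Control library.

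Ier2, which encodes a small nuclear protein made within minutes of many growth and stress signals, was the only Ier gene called higher after acute PTZ, and only in controls. Its normalized counts were 14.8, 16.01 and 23.5 in Control Sal (18.1 ± 4.71, SD, n = 3), 24.6, 24.6 and 11.4 in Control PTZ0 (20.2 ± 7.60, n = 3) and 162 and 135 in Control PTZ45 (148 ± 19.2, n = 2). The Sal and PTZ0 libraries overlapped, and both PTZ45 libraries were far above every one of them. In raw reads, the PTZ45 libraries held 183 and 124 reads of Ier2. Relative to Control Sal, Ier2 rose by 3.03 on the log2 scale (SE 0.32), or 8.18-fold with a 95% interval of 5.29 to 12.6 (Wald test of DESeq2, adjusted p = 1.33e-18). Of the 4 members it alone was called higher, where 0.939% of all genes tested were, and none was called lower, where 0.236% were. Relative to Control PTZ0, which shares the kindling injections, it rose by 2.88 (SE 0.32, DESeq2 adjusted p = 2.49e-16), where 1.18% of all genes were called higher and 0.0667% lower. By the size of the fitted change, Ier2 ranked 15 of the 163 genes called higher against Sal and 17 of the 213 called higher against PTZ0. Without Control PTZ45 replicate 1, the rise over PTZ0 was 2.74, and the filter of DESeq2 on low counts left it no adjusted p. Fits without either Control PTZ45 library leave 1 library in that group, which is then assumed to vary like the others.

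In CBP-ifKO mice the higher mean of Ier2 after PTZ did not pass the test. Its normalized counts were 15.4, 8.30 and 27.3 in CBP-ifKO Sal (17.01 ± 9.63, n = 3), 21.9, 19.1 and 13.4 in CBP-ifKO PTZ0 (18.1 ± 4.33, n = 3) and 26.3, 43.0 and 41.3 in CBP-ifKO PTZ45 (36.8 ± 9.19, n = 3). The lowest PTZ45 library lay within the range of the Sal libraries, which rest on 4 to 37 reads of Ier2. The estimate was 1.02 higher on the log2 scale than in Sal (SE 0.44, unadjusted p = 0.0213, DESeq2 adjusted p = 0.923) and 1.04 higher than in PTZ0 (SE 0.41, unadjusted p = 0.0103, adjusted p = 1). No Ier gene was called higher by DESeq2 or edgeR in these comparisons, where 0.086% and 0.0607% of all genes were. At an unadjusted p under 0.05, 877 and 559 genes differed over the whole matrix, Ier2 included in both. The increase of the mean, 19.8 normalized counts over Sal, was 15.2% of the increase of 130 in controls, and 14.6% when measured from PTZ0. Fewer cells of a type that responds and less Ier2 RNA per cell cannot be told apart in whole hippocampus.

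Between genotypes in PTZ45 mice, Ier2 was 4.03-fold lower in CBP-ifKO than in Control (log2 difference -2.01, SE 0.30, DESeq2 adjusted p = 4.31e-09). It was the one member of 4 called lower, where 2.82% of all genes were and 0.25% were called higher. All 3 CBP-ifKO libraries lay below both control libraries, with a mean of 24.8% of the control mean. In the same comparison 2 of 4 neuronal markers (Rbfox3 and Nefl), 2 of 4 CA1 markers (Wfs1 and Fibcd1) and 1 of 4 dentate granule cell markers (C1ql2) were called lower. None of the 4 markers of forebrain excitatory neurons was called, with sums of 29944 to 33723 in Control PTZ45 and 30771 to 34058 in CBP-ifKO PTZ45. No marker of CA3, interneurons, astrocytes, oligodendrocytes, microglia, endothelium or choroid plexus was called. The neuronal markers summed to 48019 to 48641 normalized counts in Control PTZ45 and 39356 to 42778 in CBP-ifKO PTZ45, and the CA1 markers to 2254 to 2697 and 1574 to 1703. Their part in the lower level of Ier2 was not tested. Without acute PTZ the estimates for Ier2 were -0.02 in Sal (SE 0.51) and -0.17 in PTZ0, and the libraries of both genotypes overlapped in each.

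The difference between the genotypes' responses was tested by an interaction term. For Ier2 the rise in CBP-ifKO less that in Control was -2.04 on the log2 scale from Sal (SE 0.50, 95% interval -3.02 to -1.05, DESeq2 adjusted p = 0.0183) and -1.835 from PTZ0 (SE 0.48, adjusted p = 0.035). It was the only member called in either interaction, where 0.329% and 0.423% of all genes were called lower. The estimate was negative in every alternative fit. The call from Sal held in 6 of 7 alternatives and was lost under edgeR (adjusted p = 0.102). The call from PTZ0 held in 3 of 7 and was lost under edgeR (adjusted p = 0.107), in 1 fit of all 17 libraries (DESeq2 adjusted p = 0.0893), with the replicate block (0.321) and with the GC correction and that block (0.211). Both calls were also lost when single libraries were left out. From Sal, the DESeq2 adjusted p was 0.14 without Control Sal replicate 1, 0.114 without Control Sal replicate 2, 0.627 without CBP-ifKO Sal replicate 3, 0.991 and 0.332 without Control PTZ45 replicates 1 and 2, and 0.127 without CBP-ifKO PTZ45 replicate 1. From PTZ0, it was 0.0562 and 0.36 without Control PTZ0 replicates 1 and 3, 0.246 and 0.183 without CBP-ifKO PTZ0 replicates 1 and 2, 0.977 and 0.167 without Control PTZ45 replicates 1 and 2, and 0.345 without CBP-ifKO PTZ45 replicate 1.

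After the kindling injections without a last PTZ injection, no Ier gene was called different from Sal. For Ier2 the estimate of PTZ0 against Sal was 0.15 in Control (SE 0.45) and 0.00 in CBP-ifKO, and the estimates of the other members ranged from -0.45 to 0.10. None was called by DESeq2 or edgeR in either genotype, where 0.00562% of genes were called higher and 0.00281% lower in Control and 0.0028% and 0.0084% in CBP-ifKO. At an unadjusted p under 0.05, 207 genes differed in Control and 120 in CBP-ifKO, and no member was among them.

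**Figure D2:**
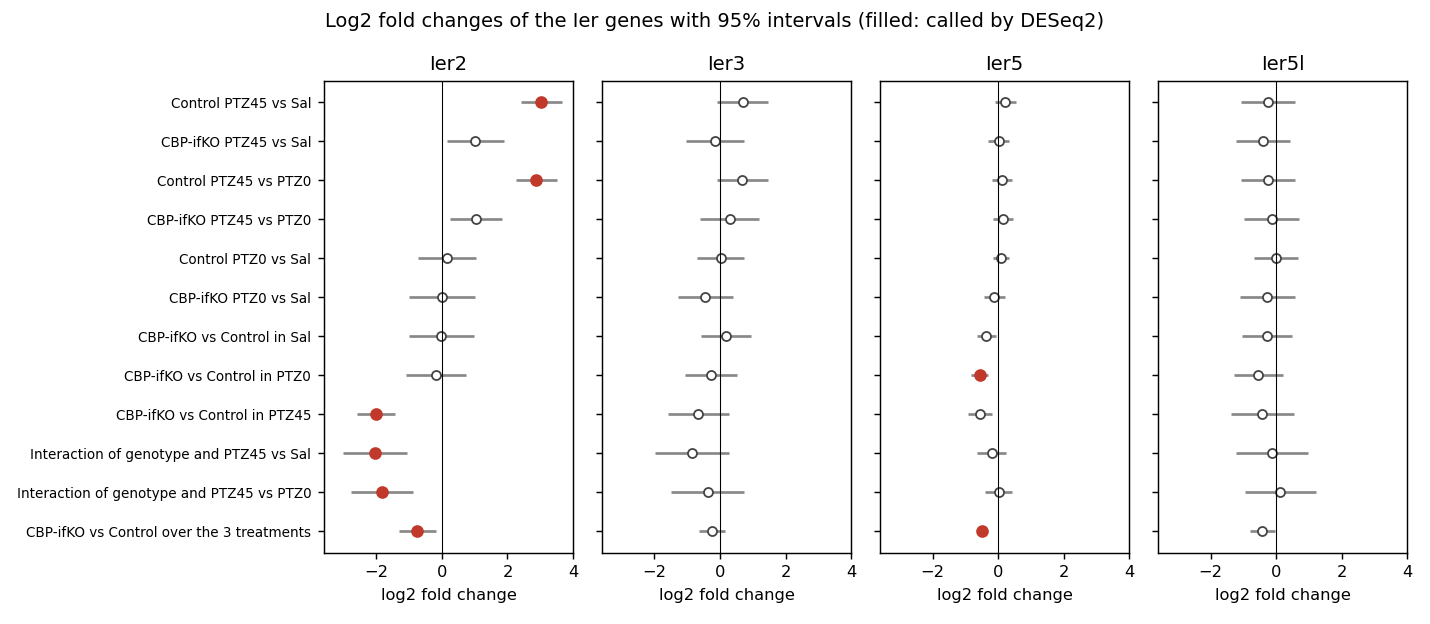
Log2 fold changes of the 4 Ier genes with 95% intervals in the comparisons of treatments, of genotypes and of both (interaction), on a linear axis of log2 units, filled where DESeq2 called the gene at an adjusted p under 0.05. Ier2 is called in controls after PTZ45 (3.03 and 2.88) between genotypes in PTZ45 mice (-2.01), in both interactions and over the 3 treatments, and Ier5 between genotypes in PTZ0 mice (-0.57) and over the 3 treatments.

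Ier3, which encodes the stress-inducible protein IEX-1, had its highest mean in Control PTZ45 mice but was called in no comparison that gave it an adjusted p. Its normalized counts were 29.6, 25.9 and 21.7 in Control Sal, 24.6, 30.5 and 23.8 in Control PTZ0, and 41.6 and 42.4 in Control PTZ45. The Control PTZ45 libraries lay above all other control libraries, as was so for Ier2 and for 10.6% of the 18282 genes that averaged 10 or more normalized counts. In CBP-ifKO no member had that pattern, which 1.89% of those genes had. The estimate against Sal was 0.70 on the log2 scale (SE 0.40, unadjusted p = 0.0776, DESeq2 adjusted p = 0.751), and against PTZ0 0.68 (SE 0.40, adjusted p = 0.715). In CBP-ifKO mice, Ier3 stood at 30.1, 41.5 and 20.0 in Sal, 19.5, 27.7 and 17.3 in PTZ0, and 11.6, 37.0 and 30.7 in PTZ45. These 3 groups overlapped, and CBP-ifKO Sal replicate 2, the shallowest library, was level with the Control PTZ45 libraries. In PTZ45 mice the genotypes differed by -0.67 (SE 0.47, adjusted p = 0.701), and the interaction from Sal was -0.85 (SE 0.58, adjusted p = 1).

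Ier5, which encodes a nuclear regulator of protein phosphatase 2A, was lower in CBP-ifKO at each treatment and was called in no comparison of treatments. Its normalized counts were 284, 254 and 256 in Control Sal, 301, 285 and 266 in Control PTZ0, and 271 and 351 in Control PTZ45. In CBP-ifKO they were 183, 224 and 220.2 in Sal, 192, 206 and 177 in PTZ0, and 219, 184 and 231 in PTZ45. The 9 CBP-ifKO libraries, at most 231, were all below the 8 Control libraries, at least 254. Of the 13041 genes that averaged 50 or more normalized counts, 2.87% had all CBP-ifKO libraries below all Control libraries and 1.1% had them all above.

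The mean of Ier5 was 204 ± 20.4 (SD, n = 9) in CBP-ifKO and 283 ± 31.6 (n = 8) in Control, or 72.0% of Control. By group, the CBP-ifKO mean was 209 ± 22.9 against 265 ± 17.2 in Sal, 192 ± 14.4 against 284 ± 17.7 in PTZ0, and 211 ± 24.4 against 311 ± 56.8 in PTZ45. The genotypes differed in the same direction at each treatment, and 1 of the 3 differences passed the test. The log2 difference was -0.36 in Sal (SE 0.15, unadjusted p = 0.0164, DESeq2 adjusted p = 0.279) and -0.55 in PTZ45 (SE 0.18, unadjusted p = 0.00237, adjusted p = 0.0674). It was -0.57 in PTZ0 (SE 0.14, adjusted p = 0.00148), where 5.25% of all genes were called lower and 1.43% higher. In Sal, where 1.77% of all genes were called lower, none of the 3 members with an adjusted p was called, and the filter of DESeq2 on low counts left Ier2 without one. In PTZ0 it left Ier2, Ier3 and Ier5l without one. Without Control PTZ0 replicate 1 the adjusted p in PTZ0 was 0.0745, and without CBP-ifKO PTZ0 replicate 3 it was 0.0615. That call held in 6 of 7 alternatives and was lost with the GC correction and replicate block (DESeq2 adjusted p = 0.082). In PTZ45, Ier5 was called in 1 fit of all 17 libraries (adjusted p = 0.00787) and in none of the other alternatives.

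Over the 3 treatments together, a comparison added after these values were seen, Ier5 was lower in CBP-ifKO by 0.49 on the log2 scale (SE 0.08, 0.711-fold with a 95% interval of 0.642 to 0.788, DESeq2 adjusted p = 4.07e-09). In that comparison 11.5% of all genes were called lower and 7.76% higher, and 2 of the 4 members, Ier5 and Ier2, were called lower. Ier2 was lower by 0.75 (SE 0.28, adjusted p = 0.0436), and of its single treatments only PTZ45 was called, as described above. This call of Ier2 held in 2 of 6 alternatives (adjusted p up to 0.129) and in 6 of the 17 fits that left out 1 library. It was lost without any 1 of the PTZ45 libraries, and without replicate 3 of Control Sal, replicates 1 and 2 of CBP-ifKO Sal, replicates 1 and 2 of Control PTZ0 or replicate 3 of CBP-ifKO PTZ0, with DESeq2 adjusted p from 0.0665 to 0.18. Ier5 kept its call in all 6 alternatives and all 17 of these fits.

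After acute PTZ, Ier5 was not called different from Sal in either genotype, and its Control PTZ45 libraries stood apart at 271 and 351. In Control the estimate of PTZ45 against Sal was 0.22 with a 95% interval of -0.09 to 0.54 (DESeq2 adjusted p = 0.855), and in CBP-ifKO it was 0.02 (SE 0.17, adjusted p = 1). Without single libraries the Control estimate ranged from 0.03 to 0.40. The interaction of genotype and PTZ45 against Sal was -0.20 (SE 0.22, adjusted p = 1). A rise of Ier5 in controls as large as that of Ier2 lies outside that 95% interval.

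**Figure D3:**
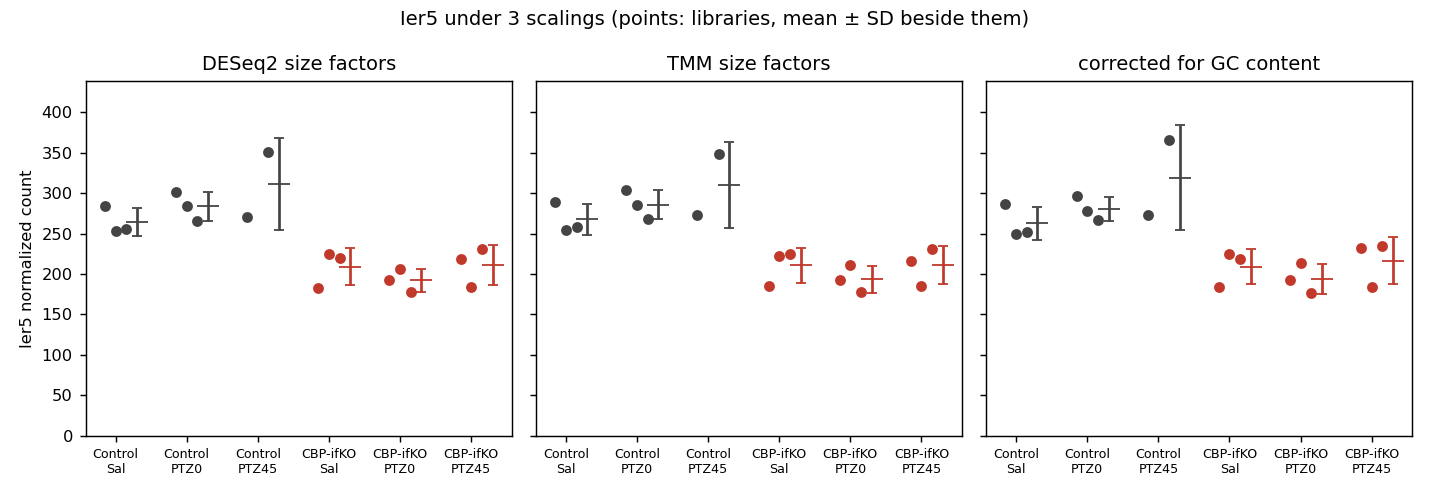
Normalized counts of Ier5 in the 17 libraries by group under the size factors of DESeq2, under TMM and after correction for GC content, on linear axes from 0, with 1 point per library, a bar at the group mean and error bars of 1 SD. Under each scaling the 9 CBP-ifKO libraries lie below the 8 Control libraries, with a CBP-ifKO mean of 72.0%, 71.9% and 72.9% of Control.

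Markers of cell types moved with the genotype beside Ier5. The 4 CA1 markers (Wfs1, Fibcd1, Spink8 and Pou3f1) summed to 2254 to 2898 normalized counts in Control and 1574 to 2065 in CBP-ifKO libraries, and all 4 were called lower over the 3 treatments. The 4 general neuronal markers (Snap25, Syt1, Rbfox3 and Nefl) summed to 42709 to 48641 in Control and 36975 to 42778 in CBP-ifKO, and all 4 were called lower as well. The 4 markers of forebrain excitatory neurons (Slc17a7, Camk2a, Neurod2 and Neurod6) summed to 26581 to 34911 in Control and 30771 to 39905 in CBP-ifKO, with Neurod2 called higher and none lower. Of the CA3 markers 2 of 4 were called lower (sums of 2229 to 2503 in Control and 1992 to 2338 in CBP-ifKO), of the interneuron markers 2 of 5 (6231 to 6607 and 5544 to 6243) and of the astrocyte markers 3 of 6 (18230 to 20129 and 15529 to 19701). Of the dentate granule cell markers 2 of 4 were lower and 1 was higher. DESeq2 and edgeR called 0 of the 5 markers each of oligodendrocytes, of which 3 had an unadjusted p under 0.05, and of microglia and endothelium, of which 0 had. The 5 choroid plexus markers were given no adjusted p by DESeq2. No marker of these lists was at 0 in any library. The part of cell makeup in the lower level of Ier5 was not tested. Lane separates the genotypes within each treatment, so that lane and genotype cannot be told apart there. Control PTZ45 and CBP-ifKO Sal, which shared a lane, differ in both genotype and treatment, and Ier5 was at 271 and 351 in the former and between 183 and 224 in the latter.

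The region in front of Ier5 is printed because its level followed the genotype. RefSeq gave a sequence before the start site for 3 of the 4 genes, Ier3, Ier5 and Ier5l. The following 250 bases end at the base before the start of Ier5, at chr1:155099637-155099886 on the minus strand (GRCm38.p6), 5′ to 3′. Capitals mark CCAAT boxes, which here read ATTGG because they lie on the other strand, and GC boxes (GGGCGG, or CCGCCC on the other strand).
Ier5: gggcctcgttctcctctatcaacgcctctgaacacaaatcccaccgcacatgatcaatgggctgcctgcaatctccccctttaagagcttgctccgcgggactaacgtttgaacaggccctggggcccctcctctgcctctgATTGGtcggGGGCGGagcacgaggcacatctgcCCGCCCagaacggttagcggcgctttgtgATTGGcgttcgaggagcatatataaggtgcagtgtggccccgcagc

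The CCAAT boxes lie 108 to 104 and 46 to 42 bases before the start of Ier5, and the GC boxes 99 to 94 and 75 to 70 bases before it. Ier3 and Ier5l also held 2 CCAAT boxes each, with 1 GC box each. On both strands of windows of this length, 33.8% of 32851 promoters held CCAAT and 32.7% held GGGCGG. None of the 3 windows held the cAMP response element TGACGTCA, held by 1.55% of promoters, or its shorter form TGACG, which is part of it and was held by 17.8%. Likewise the AP-1 site TGACTCA (4.46%), the E box CACGTG (6.02%), TATAAA (12.4%) and the CArG box that serum response factor binds (1.47%) were not among these letters in the 3 windows. TATAAA was searched by these exact letters, so the similar tatataag near the end of the Ier5 window was not counted.

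Ier5l, the Ier5-like gene, was weakly expressed in all groups and called in no comparison that gave it an adjusted p. Its normalized counts lay between 25.7 and 44.4 in the Sal and PTZ0 libraries of Control, and were 23.9 and 33.7 in Control PTZ45. In CBP-ifKO they were 18.6, 35.3 and 33.3 in Sal, 24.3, 17.2 and 28.4 in PTZ0, and 21.03, 22.99 and 20.04 in PTZ45. Neighboring groups in the order of their means overlapped throughout. Over all treatments the CBP-ifKO mean was 24.6 ± 6.43 (SD, n = 9) and the Control mean 32.8 ± 7.69 (n = 8), or 74.9% of Control. The fit gave a log2 difference of -0.42 (SE 0.19, unadjusted p = 0.026, DESeq2 adjusted p = 0.105). Corrected for GC content, which at 63.8% is the highest of the 4 genes, the CBP-ifKO mean was 82.0% of Control. After PTZ45, the estimate against Sal was -0.26 in Control (95% interval -1.09 to 0.57, adjusted p = 0.981) and -0.40 in CBP-ifKO (SE 0.43, adjusted p = 1).

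The order of the groups differed between members. For Ier2, the Sal and PTZ0 groups of both genotypes overlapped in their libraries, CBP-ifKO PTZ45 came next and overlapped with CBP-ifKO Sal, and Control PTZ45 stood apart. For Ier5, the 3 CBP-ifKO groups overlapped with each other and so did the 3 Control groups, with a gap between the genotypes. For Ier3, the Control PTZ45 libraries started at 41.6, just above the 41.5 of the highest CBP-ifKO Sal library.

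Other immediate early genes give the setting for Ier2. Of a list of 29, 25 were called higher in Control PTZ45 mice than in Sal and 25 than in PTZ0, where 0.939% and 1.18% of all genes were. The median log2 change over the list was 2.20 and 1.95, against 0.01 over all genes tested against Sal. In CBP-ifKO, 10 of the 29 were called higher than in Sal, where 0.086% of all genes were, and the median over the list was 0.33. The 10 were Fos, Fosb, Egr1, Egr2, Nr4a1, Npas4, Arc, Btg2, Dusp1 and Ccn1. Thus these 10 passed the test in CBP-ifKO where Ier2 did not, and edgeR called 3 of the list there. The estimate for Ier2 there, 1.02 (SE 0.44), was above those of Egr1 (0.71, SE 0.13), Nr4a1 (0.82, SE 0.17) and Arc (0.57, SE 0.15). It was below those of Fos, Fosb, Egr2, Npas4, Btg2, Dusp1 and Ccn1. Ier2 rested on 4 to 37 raw reads per library in CBP-ifKO Sal and 25 to 43 in CBP-ifKO PTZ45. Between genotypes in PTZ45 mice 24 of 29 were called lower in CBP-ifKO, where 2.82% of all genes were, with a median of -1.73. In each interaction, from Sal and from PTZ0, 18 of 29 were called lower, where 0.329% and 0.423% of all genes were. There edgeR called 14 and 16 of the list. Without Control PTZ45 replicate 1, 16 rather than 25 were called over PTZ0, and in CBP-ifKO over Sal 5 were called when replicate 1 of Sal was left out, 6 when replicate 2 of PTZ45 was and 5 when replicate 3 of PTZ45 was.

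Against these 25 genes, the size of the Ier2 response in controls was in the upper part. Fos, the AP-1 subunit most used as a marker of neuronal activity, rose by 6.08 on the log2 scale in controls (SE 0.48) and by 2.91 in CBP-ifKO. Egr1, a zinc finger transcription factor, rose by 2.46 and 0.71, and Dusp1, a phosphatase of MAP kinases, by 2.84 and 1.45. By the ratio of means, 8 of the 25 genes had a larger fold in controls than the 8.19-fold of Ier2. The increase in CBP-ifKO as a share of that in controls was 15.2% for Ier2, with a median of 6.67% over the 25 genes and a range from -9.06% for Jun to 27.5% for Ccn1. Measured from Sal, it was smaller than that of Ier2 in 19 genes and larger in 6, with Egr1, counted as smaller, also at 15.2%. Measured from PTZ0, Egr1 (19.3%) and Per1 (17.6%) were above the 14.6% of Ier2, and Nr4a3 (4.68%) was below it. All these shares rest on the same libraries and are given without a test.

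**Figure D4:**
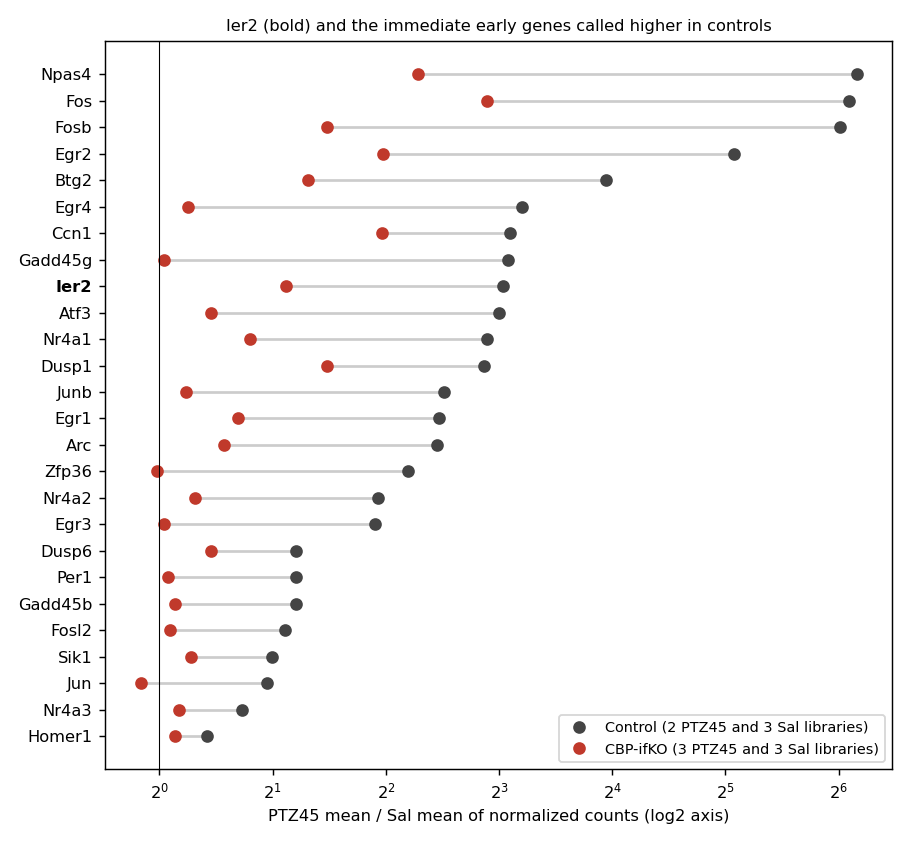
Ratio of the PTZ45 mean to the Sal mean of normalized counts (horizontal log2 axis) in Control (dark points) and CBP-ifKO (red points), 1 line per gene, for Ier2 and the 25 immediate early genes called higher in controls, ordered by the ratio in controls, with a vertical line where both means are equal. Ier2 lies at 8.19 in Control and 2.17 in CBP-ifKO, and 8 genes stand above it in controls.

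Other genes of the pathway encode the signals to immediate early promoters. Of 15 genes for SRF, CREB and ERK signaling, 0 were called by DESeq2 or edgeR in any comparison of treatments or interaction, and at most 2 had an unadjusted p under 0.05 in one of them. With at most 1.18% of all genes called in a direction in these comparisons, a count of 0 among 15 sets the list apart from no other genes. Srf, which encodes serum response factor, was lower in CBP-ifKO PTZ45 than in Control PTZ45 by 0.54 on the log2 scale (SE 0.17, DESeq2 adjusted p = 0.0455). Mapk3 and Map2k1, which encode ERK1 and its kinase MEK1, were lower in CBP-ifKO PTZ0 by 0.28 and 0.32, and Map2k1 was also lower in CBP-ifKO Sal by 0.34 (DESeq2 adjusted p = 0.0352), where edgeR called none of the list. Over the 3 treatments Srf and Map2k1 were among the genes of this list called lower, and Elk1 and Elk3, which encode partners of serum response factor, were called higher.

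Among 23 genes for known partners and targets of Ier proteins, 2 were called higher in Control PTZ45 mice than in Sal, where 0.939% of all genes tested were. Mcl1, an antiapoptotic BCL2 relative linked to Ier3, was higher by 0.62 on the log2 scale than in Sal (SE 0.10, DESeq2 adjusted p = 1.78e-07). Dnajb1, a heat shock cochaperone, was higher by 0.52 (SE 0.13, adjusted p = 0.00984). Both were also called higher than in PTZ0, by 0.66 and 0.57, where 1.18% of all genes were. No gene of this list was called by DESeq2 or edgeR in CBP-ifKO after PTZ45, where 2 had an unadjusted p under 0.05 against Sal and 0 against PTZ0. Of all genes, 0.086% and 0.0607% were called higher in these comparisons. In PTZ45 mice Mcl1, Dnajb1 and Hsph1 were called lower in CBP-ifKO than in Control by 0.41, 0.61 and 0.43, where 2.82% of all genes were. The interaction from PTZ0 was called for Mcl1 (log2 difference -0.56), where 0.423% of all genes were called lower.

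Over the 3 treatments, 9 of the 23 genes were called lower in CBP-ifKO, where 11.5% of all genes were, and 1 was called higher, where 7.76% were. Ppp2r2b, a B55 subunit of protein phosphatase 2A, was lower by 0.21 and Hsph1, a heat shock protein, by 0.32. Cdc25b, a cell cycle phosphatase, was lower by 0.27. Hspa1b was lower by 1.13 and Hspa1a by 0.58, but these genes are near-identical copies. Reads that fit both may have been lost to the filter on mapping quality. Hsf1, the heat shock factor itself, was the one higher, by 0.23.

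The genes whose levels ran most like those of each member over the 17 libraries differed by member. Pearson correlations were taken on log2(normalized count + 1) among genes averaging 50 or more normalized counts, and all points share libraries, depth and scaling. Ier2 ran with Fosb (r = 0.94), Dusp6 (0.93) and Dusp1 (0.92), followed by Tpt1 and Gm47075 (both 0.92). Ier5 ran with Stmn4 (0.96), Osbpl1a, Grm3, Vsnl1 and Sept8 (all 0.95). Ier5l ran with Olfm2 (0.91), Klhdc3 and Adcy8 (both 0.80), and Fhod3 and Scn4b (both 0.78). For Ier3 the highest were lower, with Dusp10 at 0.76, Rpl41, Rassf1 and Tceal6 at 0.71 and Ciart at 0.69. Between members, r was 0.59 for Ier5 and Ier5l, 0.39 for Ier2 and Ier5, 0.38 for Ier2 and Ier3, 0.34 for Ier3 and Ier5, 0.17 for Ier3 and Ier5l, and -0.10 for Ier2 and Ier5l.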

How the data were processed

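Per the study's methods and labels, RNA of whole hippocampus was sequenced as single-end reads of 50 bases. The processing notes name FastQC 0.11.8, Trim Galore 0.6.4, STAR 2.6.1 and DESeq2 1.30.1. Reads were aligned to GRCm38, filtered on mapping quality and counted over exons with Rsubread. The strand setting is not given in the sources used here. The deposited values are raw read counts per gene, not normalized. 1 further column of the matrix, with a name like those of Control PTZ45, matched no sample given here and was not used.

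Counts were fitted with DESeq2 1.42.0 in R 4.3.3 (Wald test, two-sided) over all genes with at least 1 count, on the libraries compared. Adjusted p-values are Benjamini-Hochberg over all genes left by independent filtering, and a gene was called at an adjusted p under 0.05. Genotype was compared within each treatment and treatment within each genotype, and interactions took the libraries of 2 treatments. A missing adjusted p stays missing. Levels are counts divided by size factors over the 17 libraries. Group values are the mean ± SD, and intervals are 95%. Total counts are in the report. They set the precision for Ier2, Ier3 and Ier5l, and no library was a copy of another (chi-square per degree of freedom between libraries of a group of 2.16 to 16.0). Gene models came from GENCODE M21, sequences before start sites from RefSeq.

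Alternatives were edgeR 4.0.16 (quasi-likelihood), TMM scaling, a filter on low counts (at least 10 in at least 2 libraries), 1 fit of all 17 libraries, a replicate block, a correction for GC content with and without that block, and 90 fits that left out 1 library. The tests were tested on simulated data. Named genes were the 4 members, Crebbp and Esr1 as label checks, genes of the lists on which a result turns, and for each member the 5 genes most correlated with it. The members and lists were chosen with earlier results of these data known.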

Additional observations from a re-analysis of the deposited data

Results flagged for a closer look

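The response of Ier2 to PTZ45 differed between the genotypes by a test of the difference itself. The interaction of genotype and PTZ45 was -2.04 on the log2 scale when measured from Sal (DESeq2 adjusted p = 0.0183) and -1.835 when measured from PTZ0 (adjusted p = 0.035). All 3 CBP-ifKO PTZ45 libraries lay below both Control PTZ45 libraries. Both estimates share the PTZ45 libraries. Under edgeR neither was called (adjusted p = 0.102 and 0.107), and the difference from PTZ0 was called in 3 of 7 alternatives, with an adjusted p of up to 0.321 with the replicate block. The single libraries without which a call is lost are named beside the test in the report. Single libraries were not tested for standing apart within their groups of 2 or 3.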

How the results depend on the processing

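The higher level of Ier2 in Control PTZ45 than in Sal (adjusted p at most 9.95e-07 over 7 alternatives and 1.83e-06 without single libraries), its lower level in CBP-ifKO PTZ45 (at most 0.0105) and the lower level of Ier5 over the 3 treatments kept their calls in every alternative and every fit without 1 library. Where a Control PTZ45 library was left out, 1 remained, and its spread was taken from the other groups. Low counts limit Ier2 at rest, Ier3 and Ier5l. The cause of the following changes was not tested. The count of Ier genes called between genotypes was 0 in PTZ0 instead of 1 under the GC correction with the replicate block (Ier5, adjusted p = 0.082), and 2 in PTZ45 instead of 1 under 1 fit of all 17 libraries (Ier5, 0.00787). In the interaction from Sal it was 0 instead of 1 under edgeR, and in the interaction from PTZ0 it was 0 under edgeR, 1 fit of all libraries (Ier2, 0.0893), the replicate block (0.321) and the GC correction with it (0.211). Over the 3 treatments it was 1 instead of 2 under the filter on low counts (Ier2, 0.129), the replicate block (0.0653), the GC correction (0.0672) and both (0.0928). Without single libraries, the count ranged from 0 to 1 for Control PTZ45 against PTZ0, for genotype in PTZ0 and for both interactions, and from 1 to 2 over the 3 treatments.

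Estimates near 0 changed sign. With the GC correction, Ier5l was at 0.0046 in Control PTZ45 against Sal, 0.086 in CBP-ifKO PTZ45 against PTZ0 (0.12 with the block) and 0.081 in Control PTZ0 against Sal (0.093 with the block, 0.0082 with the replicate block alone). Ier2 in CBP-ifKO PTZ0 against Sal was at -0.0697 under edgeR, -0.0033 under TMM, -0.000285 with the filter and -0.045 in 1 fit of all libraries. Ier2 between genotypes in Sal was at 0.0502 under edgeR, 0.021 in 1 fit and 0.055 with the GC correction. The interaction from PTZ0 of Ier5 was at -0.022 with the GC correction and -0.00156 with the block too. Without single libraries, Ier2 ranged from -0.0269 to 0.44 in Control PTZ0 against Sal, -0.25 to 0.52 in CBP-ifKO PTZ0 against Sal, -0.53 to 0.23 between genotypes in Sal and -0.45 to 0.0238 in PTZ0. Ier3 ranged from -0.50 to 0.20 in CBP-ifKO PTZ45 against Sal, -0.0374 to 0.66 against PTZ0, -0.0919 to 0.15 in Control PTZ0 against Sal and -0.0400 to 0.43 between genotypes in Sal. Ier5 ranged from -0.074 to 0.11 in CBP-ifKO PTZ45 against Sal, -0.0685 to 0.30 in Control PTZ45 against PTZ0 and -0.17 to 0.21 in the interaction from PTZ0. Ier5l ranged from -0.31 to 0.05 in CBP-ifKO PTZ45 against PTZ0, -0.19 to 0.26 in Control PTZ0 against Sal, and -0.41 to 0.12 and -0.11 to 0.39 in the interactions from Sal and PTZ0.

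Same-numbered replicates shared only a number: their deviations correlated at -0.52 to 0.48, and every pair was above 0.1 in 1 of 9 comparisons. The replicate block lowered the count of all genes called in Control PTZ45 from 204 to 73 against Sal and from 225 to 94 against PTZ0, and between genotypes in Sal from 306 to 122, in PTZ0 from 852 to 410 and in PTZ45 from 468 to 102. In CBP-ifKO PTZ45 the 58 genes called against Sal became 4 under edgeR, 21 with the GC correction and 91 in 1 fit of all libraries, and the 23 against PTZ0 became 9 under edgeR and 8 with the block. Between genotypes in Sal, 157 were called under edgeR and 614 in 1 fit, in PTZ45 785 in 1 fit, and edgeR called 43 instead of 69 in the interaction from Sal.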
